A study of Mus musculus with 12 samples.

Results

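The genes described here make up the cholesterol and fatty acid synthesis programme together with Ch25h, which encodes cholesterol 25-hydroxylase. They were taken by name: 30 genes were listed, and those with at least 1 probe set annotated to that symbol alone were measured. This gave 29 of the 18193 genes named on the array, and Acat2 was not analysed here. All 29 passed the filter on low signals and were tested, each by its brightest probe set. Of these 29 probe sets, 28 were above the filter on all 12 arrays, the exception being Ch25h on a single array.

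The study asked how fibroblasts from mouse embryos respond to interleukin-1b (IL-1b) when IRAK4, the kinase that acts just below the IL-1 receptor, has no kinase activity. There were 2 genotypes, wild type (WT) and IRAK4 kinase dead (KD), and 3 conditions in each: 4 h in culture without IL-1b (unstimulated), 1 h with IL-1b and 4 h with IL-1b. IL-1b was mouse protein at 1 ng/ml, and all cells were kept in the same medium with foetal calf serum. Each of the 6 groups held 2 arrays, which the series design calls biological replicates; the number of embryos or cultures behind them is not stated in the labels, so p-values measure the spread between these samples. The unstimulated cells served as the control for both times, so the 1 h samples had a control of a different time in culture. The genotype of WT unstimulated replicate 1 is not in its title and was taken from the series design.

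Cholesterol is built from acetyl-CoA through mevalonate and a chain of sterol intermediates. Transcription of these enzymes is driven by SREBP proteins, made from Srebf1 and Srebf2, which the escort protein SCAP carries to the Golgi for cleavage when sterols are low; INSIG proteins hold SCAP back when sterols are plentiful. 25-Hydroxycholesterol, the product of CH25H, binds INSIG and is also a ligand of the LXR nuclear receptors, and Ch25h is known as a gene induced by inflammatory and interferon signals.

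Promoter sequences are shown for 4 members: Hmgcs1, Srebf2, Nsdhl and Ch25h. The windows of Hmgcs1 and Srebf2 hold a sterol regulatory element, found in only 3 of the 31 member windows. Nsdhl had the largest genotype difference of the synthesis enzymes in unstimulated cells. Each is the 250 bases before the annotated start, 5′ to 3′ on the gene's strand, from RefSeq on GRCm38.p6. The windows lie at chr13:119690101-119690350 (Hmgcs1, plus strand), chr15:82147019-82147268 (Srebf2, plus strand), chrX:72918271-72918520 (Nsdhl, plus strand) and chr19:34475149-34475398 (Ch25h, minus strand). Capitals mark TCACNCCA (the sterol regulatory element), CCAAT (here always read on the other strand, as ATTGG) and TGACGTCA (the cyclic AMP response element).
Hmgcs1: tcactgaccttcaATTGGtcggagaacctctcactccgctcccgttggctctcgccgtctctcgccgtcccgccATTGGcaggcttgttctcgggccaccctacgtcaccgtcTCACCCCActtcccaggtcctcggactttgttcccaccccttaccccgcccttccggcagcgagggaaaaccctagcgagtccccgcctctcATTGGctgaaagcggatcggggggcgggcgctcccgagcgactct
Srebf2: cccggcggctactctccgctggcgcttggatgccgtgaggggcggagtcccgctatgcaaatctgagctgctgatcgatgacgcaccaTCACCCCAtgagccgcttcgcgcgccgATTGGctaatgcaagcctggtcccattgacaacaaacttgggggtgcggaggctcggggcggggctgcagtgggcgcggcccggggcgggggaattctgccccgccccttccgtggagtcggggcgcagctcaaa
Nsdhl: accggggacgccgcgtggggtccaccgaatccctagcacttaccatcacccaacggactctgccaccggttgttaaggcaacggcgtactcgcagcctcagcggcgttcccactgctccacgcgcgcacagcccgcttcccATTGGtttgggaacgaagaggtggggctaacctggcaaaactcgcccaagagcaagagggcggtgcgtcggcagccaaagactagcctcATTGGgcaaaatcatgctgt
Ch25h: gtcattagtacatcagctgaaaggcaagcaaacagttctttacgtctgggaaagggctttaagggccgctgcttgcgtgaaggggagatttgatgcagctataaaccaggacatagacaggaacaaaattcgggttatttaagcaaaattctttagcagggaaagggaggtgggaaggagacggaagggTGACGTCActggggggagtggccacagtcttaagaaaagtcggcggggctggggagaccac

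Counted back from the start, the sterol regulatory element lay at -137 to -130 in Hmgcs1 and at -162 to -155 in Srebf2. CCAAT stood 3 times in Hmgcs1, once in Srebf2 and at -109 to -105 and -20 to -16 in Nsdhl. Ch25h held TGACGTCA at -61 to -54. Promoters were found for 23 of the 29 members, in 31 windows, and there was no entry for Fdps, Fdft1, Sqle, Stard4, Scd1 and Scd2. Motifs were searched on both strands; TCACNCCA can share letters with CCAAT, and in the 4 windows shown they did not overlap. TCACNCCA was in 3 of the 31 windows (9.68%, the third being Msmo1), against 3.67% of all 32851 promoter windows. CCAAT was in 21 (67.7%, against 33.8% of all), the Sp1 box GGGCGG, left in lower case above, in 23 (74.2%, against 32.7%), and TGACGTCA only in that of Ch25h (3.23%, against 1.55%). These shares describe the letters in the windows and were not matched for base composition.

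The deposited values were MAS5 signals on a linear scale, scaled so that every array had a trimmed mean of 150; median signals ran from 23.0 to 28.3. Differences below are on the scale of log2(signal + 8), given with the standard error from limma, and a gene is called changed when its Benjamini-Hochberg adjusted p over 12456 genes was under 0.05. All 10 fibroblast markers were above the filter on all 12 arrays, with summed signals of 28405 to 34278, but Pdgfra averaged 584 to 774 in the WT groups against 132 to 173 in KD, and Lum 363 to 595 against 58.8 to 73.1. Of the 8 macrophage markers only Lyz2 was above the filter on all arrays, and the list summed to 180.0 to 246 on WT and 423 to 520.0 on KD arrays. Lyz2 averaged 98.1 to 124 in the WT groups and 245 to 316 in KD, Ptprc 5.90 to 13.6 and 37.3 to 46.8, while Itgam was below the filter on every array. Ptprc was under the filter on every WT array. In unstimulated KD cells 5 of the 6 macrophage markers tested had a positive difference and 2 were called higher, against 7.38% of all genes. Fcgr3 had a negative difference, averaging 25.95 in unstimulated WT and 21.55 in unstimulated KD cells. Of the adipocyte markers, Fabp4 averaged 369 to 569 in WT and 75.6 to 138 in KD, and Adipoq and Lep were below the filter throughout. The ratio of the 3′ to the 5′ actin control was 2.83 and 2.86 on the KD unstimulated arrays and 2.14 to 2.68 on the others.

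Cells without IRAK4 kinase activity had lower signals across the sterol pathway before any IL-1b was added. In unstimulated cells 17 of the 29 members were lower in KD and 0 higher, where 14.3% of all genes were called, 6.94% lower and 7.38% higher. All 29 differences were negative, with a median of -0.52 against -0.02 over all genes tested. Both KD arrays were below both WT arrays for 25 of the 29, as they were for 27.7% of all genes. Averaged over the 3 conditions, 22 members were lower in KD and 0 higher (31.8% of all genes called, 13.7% lower and 18.2% higher), with a median of -0.54 against 0.03, and all 6 KD arrays lay below all 6 WT arrays for 16 members, against 4.17% of all genes. The mean over conditions includes the unstimulated arrays, so it is not a separate sample. In bulk RNA, fewer cells expressing a gene and less RNA per cell cannot be told apart. The macrophage marker sum, Pdgfra, Lum, Fabp4 and the actin ratio given above differ between the same groups. Their part in the result was not tested. After centring every array on its median signal the unstimulated count was 16, 27 of 29 differences were negative and the called genes overall split 1057 higher to 575 lower in place of 919 to 865.

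**Figure D1:**
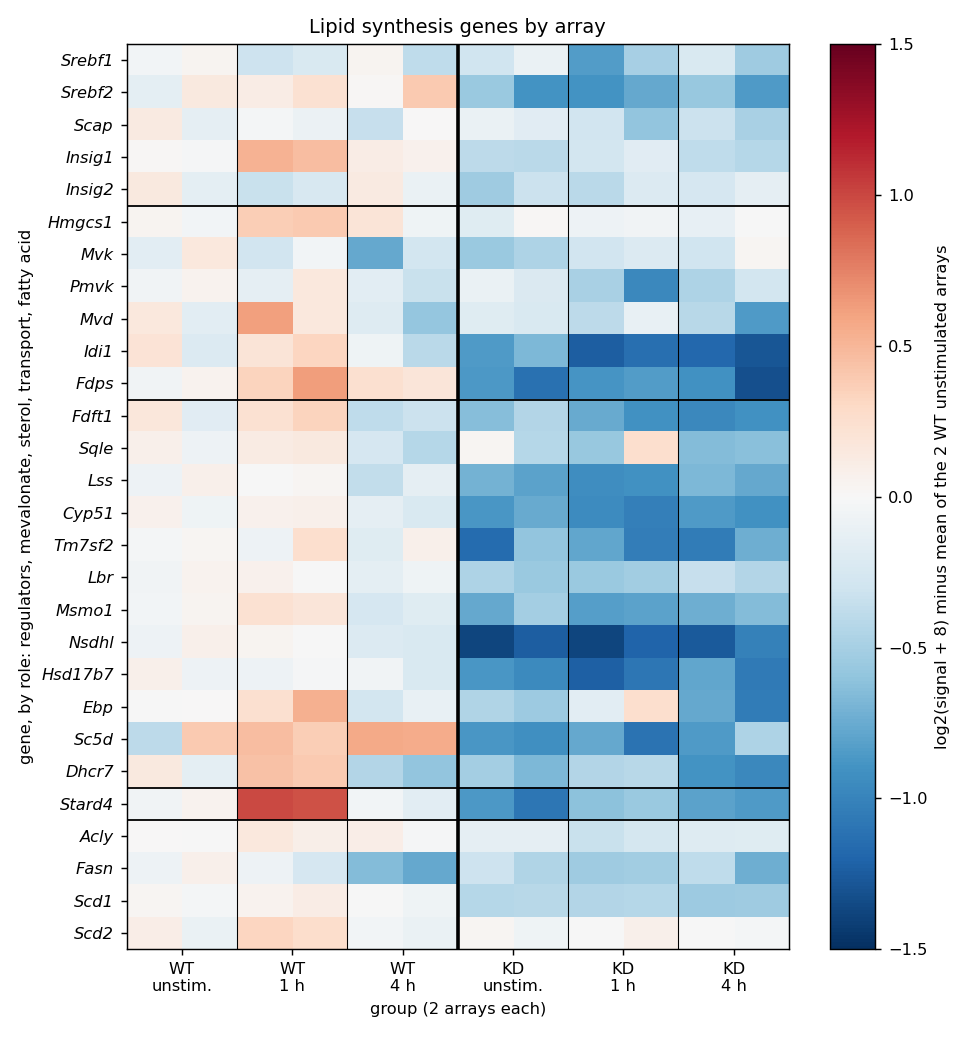
Log2(signal + 8) of 28 members (Ch25h is plotted elsewhere) on each of the 12 arrays, as the difference from the mean of the 2 WT unstimulated arrays; rows follow the members' roles and colours run from blue (lower) to red (higher). The 6 KD columns on the right are blue for most rows, among them Nsdhl, Idi1, Hsd17b7 and Fdps, while the WT 1 h columns are red for Stard4, Insig1 and Dhcr7.

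Among the regulators, Srebf2, the gene of the SREBP that chiefly drives cholesterol synthesis, had the largest difference. Its signal ran from 762 to 1108 (median 919.7) on the 6 WT arrays and from 449 to 568 (median 477) on the 6 KD arrays, with no overlap. It was lower in unstimulated KD cells by a log2 difference of -0.73 ± 0.15 (adjusted p = 0.00256; 0.0537 without KD unstimulated replicate 2) and over the conditions by -0.88 ± 0.09. Insig1, itself an SREBP target, was lower by -0.40 ± 0.07 and -0.54 ± 0.04, with 4180.3 as its lowest WT signal and 3765 as its highest KD signal; the unstimulated call was lost after median centring (adjusted p = 0.0542). Srebf1, which encodes the form tied to fatty acid synthesis, was not called (-0.20 ± 0.24 and -0.27 ± 0.14), nor was Scap (-0.13 ± 0.18 and -0.25 ± 0.10). Insig2 missed the threshold in unstimulated cells (-0.43 ± 0.14, adjusted p = 0.0503) and was called over the conditions (-0.22 ± 0.08, adjusted p = 0.0464), a call that 8 of the 12 runs without a single array lost, with adjusted p up to 0.138.

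In the mevalonate steps 2 of 6 members were lower in unstimulated KD cells and 4 of 6 over the conditions, against 6.94% and 13.7% of all genes. Fdps, which makes farnesyl diphosphate, read 327 to 528 on the WT arrays (median 394) and 131 to 187 on the KD arrays (median 178). Its difference of -0.99 ± 0.15 in unstimulated cells (adjusted p = 0.000252) and -1.22 ± 0.09 over the conditions was the largest of the branch. Idi1, the isopentenyl diphosphate isomerase, read 2118 to 3513 in WT and 1149 to 1754 in KD (-0.77 ± 0.13 and -1.07 ± 0.07). Here too no KD array reached the lowest WT array. Hmgcs1, whose product condenses acetyl-CoA with acetoacetyl-CoA, was brighter than both and far less different: its brightest probe set gave -0.08 ± 0.09 in unstimulated cells (adjusted p = 0.597) and -0.22 ± 0.05 over the conditions (adjusted p = 0.00282). Another Hmgcs1 probe set, with 1209.5 and 1368 in WT unstimulated cells against 968 and 940.4 in KD, gave -0.43 ± 0.11 (adjusted p = 0.0139). Pmvk, phosphomevalonate kinase, was called only over the conditions (-0.34 ± 0.11, adjusted p = 0.0301), and 6 runs without a single array lost that call, with adjusted p up to 0.105. Mvk (-0.52 ± 0.22 and -0.07 ± 0.13) and Mvd (-0.21 ± 0.25 and -0.36 ± 0.14), both under 110 on every array, were not called.

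The steps from farnesyl diphosphate to cholesterol had the most calls by genotype: 10 of 12 were lower in unstimulated KD cells and 11 of 12 over the conditions. The shares of all genes called lower were 6.94% and 13.7%. Nsdhl, a sterol dehydrogenase that removes a methyl group at the fourth carbon together with Msmo1, read 339.6 and 378 in unstimulated WT cells and 133 and 148 in KD cells. That is a difference of -1.31 ± 0.14 (adjusted p = 3.57e-06), and its signal stayed between 133 and 173 on every KD array. Cyp51, the lanosterol demethylase, read 1444 and 1324 against 752 and 816 (-0.81 ± 0.09, adjusted p = 8.84e-06). Hsd17b7, the 3-ketosteroid reductase of the same demethylation complex, read 716 and 648 against 368 and 347 (-0.91 ± 0.12, adjusted p = 4.9e-05). In each of these 3 genes the groups were far apart relative to the gap between replicates.

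Among the other sterol steps, Lss, which closes the sterol rings, read 174 to 239 on the WT arrays and 115 to 139.7 on the KD arrays (-0.76 ± 0.14 unstimulated). Msmo1 read 1291 to 1812 in WT and 866 to 1085 in KD (-0.64 ± 0.10), a call lost with the mean of its probe sets (-0.36, adjusted p = 0.109). Lbr, the lamin B receptor with sterol reductase activity, read 939 to 1092 in WT and 705 to 818 in KD (-0.51 ± 0.09). None of these 3 overlapped between genotypes. Dhcr7, the last reductase of the pathway, was lower in unstimulated KD cells (-0.59 ± 0.10, adjusted p = 0.00082), but its WT arrays at 4 h, 1123 and 1011, reached down into the KD range of 776 to 1138. Sc5d, the sterol C5 desaturase, read 108 to 217 in WT and 62.4 to 102 in KD (-0.89 ± 0.22, adjusted p = 0.0105), a call lost without WT unstimulated replicate 2 or either KD unstimulated array (adjusted p up to 0.167). Tm7sf2, a sterol reductase, read 72.8 to 102 in WT and 33.2 to 52.8 in KD (-0.88 ± 0.24), and its call was lost without either WT unstimulated array or KD unstimulated replicate 1 (adjusted p up to 0.221). Both genes kept their calls over the conditions, at -1.16 ± 0.13 and -0.90 ± 0.14, in all 12 runs without a single array.

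For Fdft1, squalene synthase, the size depended on the probe set: its brightest gave -0.54 ± 0.13 in unstimulated cells (adjusted p = 0.00705) and the mean of its probe sets -0.18. The call was also lost without WT unstimulated replicate 1 or KD unstimulated replicate 1 (adjusted p up to 0.0941). Over the conditions Fdft1 was lower by -0.75 ± 0.07, and by -0.42 with the mean of its probe sets (adjusted p = 0.0518). These means take in dim probe sets, at 4.0 to 37.1 and 2.5 to 27.1. A further one read 191 and 167 in unstimulated WT cells and 124 and 134 in unstimulated KD cells. The unstimulated call was lost when probe sets that can bind several transcripts, such as the brightest, were left out. Ebp, the sterol isomerase, was called only over the conditions (-0.52 ± 0.11, adjusted p = 0.00143). Sqle, squalene epoxidase and the only sterol step with no call in either comparison, ran from 283 to 426 in WT and from 242 to 459 in KD (-0.20 ± 0.20 and -0.27 ± 0.12).

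**Figure D2:**
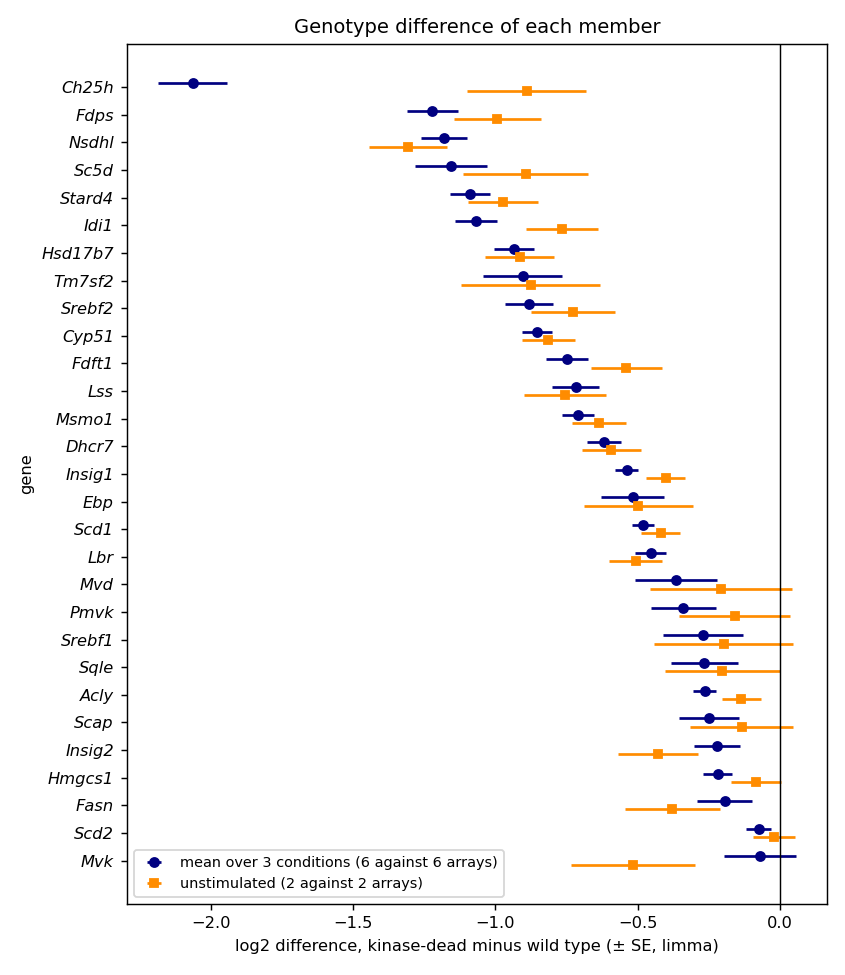
Log2 difference, KD minus WT, of each of the 29 members with its limma standard error, over the 3 conditions (circles, 6 against 6 arrays) and in unstimulated cells (squares, 2 against 2 arrays); the vertical line marks no difference. Every point lies left of the line, from -0.02 for unstimulated Scd2 to -2.06 for Ch25h over the conditions.

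Stard4, which carries cholesterol between membranes and is an SREBP-2 target, read 342 and 367 in unstimulated WT cells and 191 and 163 in KD cells. It was lower in KD by -0.97 ± 0.12 (adjusted p = 2.73e-05) and, over the conditions, by -1.09 ± 0.07. By their brightest probe sets the fatty acid enzymes were less uniform than the sterol steps. Of 4, 1 was lower in unstimulated KD cells and 2 over the conditions, against 6.94% and 13.7% of all genes. Scd1, a stearoyl-CoA desaturase, was among the brightest members, at 3737 to 4198 in WT and 2659 to 2924 in KD (-0.42 ± 0.07, adjusted p = 0.000396, and -0.48 ± 0.04). Acly, which makes cytosolic acetyl-CoA from citrate, was called over the conditions (-0.26 ± 0.04) and not in unstimulated cells (-0.14 ± 0.07). With the mean of its probe sets the call over the conditions was lost (-0.19, adjusted p = 0.0637). That mean takes in dim probe sets, among them ones at 8.3 to 37.5 and 14.1 to 41.8. Its second brightest probe set read 1523 to 2040 on the WT arrays and 1131 to 1341 on the KD arrays. Fasn, fatty acid synthase, was not called (-0.38 ± 0.17 and -0.19 ± 0.10), and neither was Scd2 by its brightest probe set (-0.02 ± 0.08 and -0.08 ± 0.04). Less bright Scd2 probe sets averaged 2322 and 1072 in unstimulated WT cells against 1888 and 733 in unstimulated KD cells. At 4 h they averaged 1902 and 946 in WT against 1979 and 896 in KD. Whether the sterol and fatty acid enzymes differ in their response to genotype was not tested.

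A small set of these genes, 6 in all, was higher in WT cells after 1 h with IL-1b than in unstimulated cells. Of the 6, 4 were not called against unstimulated cells at 4 h. The 1 h arrays and their control also differ in time in culture, so IL-1b and culture time cannot be told apart at 1 h. After 1 h 6 of the 29 members were higher and 0 lower, against 7.44% of the genes tested (2.92% higher, 4.52% lower), and 23 of 29 differences were positive with a median of 0.13 against -0.06 over all genes. They were Ch25h, Stard4, Insig1, Dhcr7, Hmgcs1 and Scd2. Between 1 h and 4 h 11 members fell and 1 rose, against calls for 19.0% of the genes tested (8.41% higher, 10.6% lower), and 24 of 29 differences were negative with a median of -0.26 against -0.04. The 1 h comparison and the change from 1 h to 4 h share the 1 h arrays, so a high or low value there moves both in opposite directions. At 4 h against unstimulated cells 1 member was higher and 2 lower (12.0% of all genes called, 4.69% higher and 7.34% lower), with a median of -0.17 against -0.12. Without either 1 h array the 1 h count was 3; without WT 4 h replicate 2 the count from 1 h to 4 h was 7, and without WT unstimulated replicate 2 the 4 h count was 5. Centring each array on its median moved the all-gene median at 1 h from -0.06 to 0.10 and turned the overall split from 364 higher and 563 lower to 751 and 236, with 7 members higher and 0 lower.

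**Figure D3:**
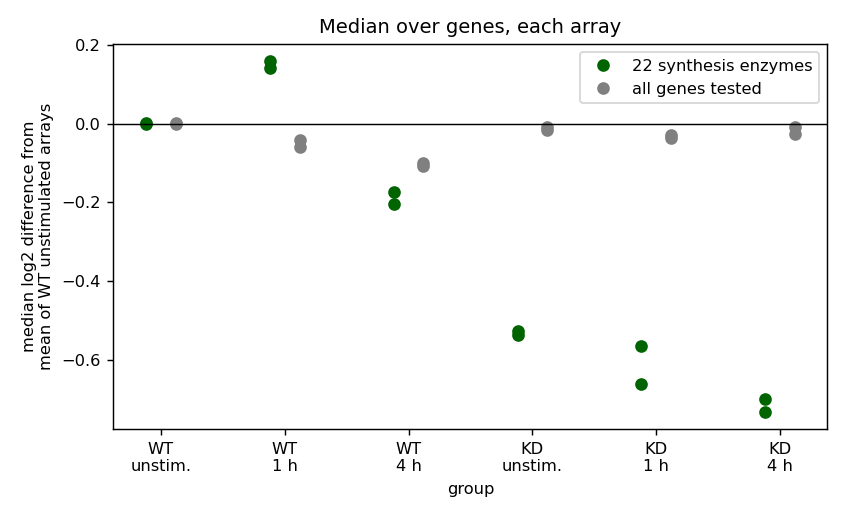
Median log2 difference from the mean of the WT unstimulated arrays, per array, over the 22 synthesis enzymes among the members (green) and over all genes tested (grey), by group. The enzyme medians are 0.14 and 0.16 at 1 h in WT, -0.17 and -0.20 at 4 h in WT, and -0.53 to -0.73 on the 6 KD arrays, while the all-gene medians stay between -0.11 and 0.00.

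Stard4 showed the clearest rise and return. In WT cells it read 342 and 367 unstimulated, 713 and 697 after 1 h, and 345 and 317 after 4 h. It rose by 0.98 ± 0.12 at 1 h (adjusted p = 7.69e-05) and then fell by 1.07 ± 0.12 (adjusted p = 8.58e-06). Both 1 h arrays stood well above the other 4 WT arrays, which overlapped each other. The rise lost its call with the mean of its probe sets (0.61, adjusted p = 0.0591), since a dim Stard4 probe set gave 0.14 ± 0.42, while a further one gave 0.70 ± 0.17.

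Insig1 read 4311 and 4180.3 unstimulated, 6115 and 5877 after 1 h, and 4587 and 4422 after 4 h in WT cells. Its rise of 0.50 ± 0.07 (adjusted p = 0.000212) and fall of 0.41 ± 0.07 (adjusted p = 0.000419) kept their calls in every run without a single array and under every other setting tried. Dhcr7 read 1697 and 1374, then 2069 and 2005, then 1123 and 1011. It rose at 1 h (0.41 ± 0.10, adjusted p = 0.0221), fell from 1 h to 4 h by 0.93 ± 0.10 (adjusted p = 7.71e-06) and ended below its unstimulated level (-0.52 ± 0.10, adjusted p = 0.00344). The fall was the firmer of these, since the rise lost its call without WT unstimulated replicate 2 or either 1 h array (adjusted p up to 0.141).

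Hmgcs1 read 4951 and 4665, then 6215 and 6299.6, then 5497 and 4586 by its brightest probe set, a rise of 0.38 ± 0.09 (adjusted p = 0.0128) that lost its call without either 1 h array (adjusted p up to 0.102). Its other 4 tested probe sets were all called at 1 h, with rises of 0.48 to 1.97. The dimmest of them read 27.7 and 40.1 unstimulated, 176 and 136 after 1 h, and 26.4 and 32.1 after 4 h, so the rise at that probe set was by 1.97 ± 0.34 (adjusted p = 0.00172). Scd2 read 5044 and 4418, then 5902 and 5656, then 4587 and 4412, a rise of 0.29 ± 0.07 (adjusted p = 0.0244) that was lost without WT unstimulated replicate 2 or either 1 h array (adjusted p up to 0.174). Idi1 and Msmo1 were not called at 1 h by their brightest probe sets (0.26 ± 0.13 and 0.21 ± 0.10) but were by another: 0.54 ± 0.12 for Idi1 (adjusted p = 0.0132) and 1.47 ± 0.22 for Msmo1 (adjusted p = 0.000538). That Msmo1 probe set read 97.4 and 101 unstimulated, 257 and 323 after 1 h, and 109 and 87.8 after 4 h, against 1502 and 1587, 1812 and 1757, and 1291 and 1357 for the brightest. Probe sets of a gene thus differed in the size of the 1 h change, the dimmer ones of Hmgcs1 and Msmo1 moving more.

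**Figure D4:**
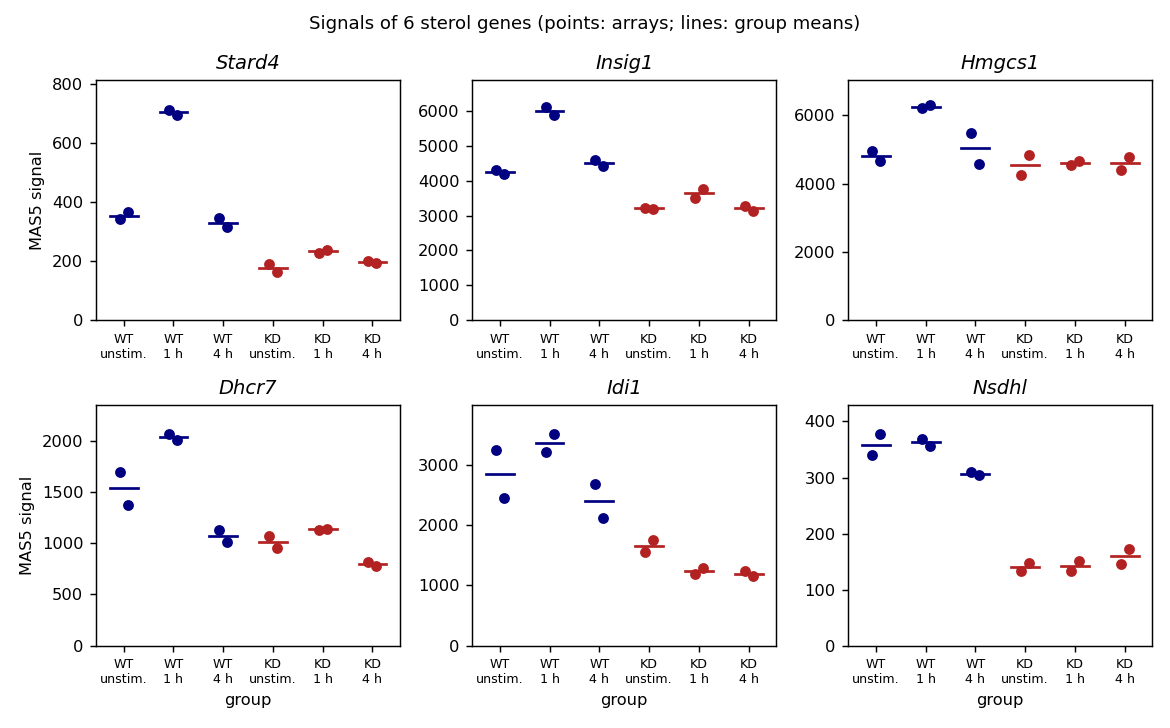
MAS5 signal (linear axes from 0) of Stard4, Insig1, Hmgcs1, Dhcr7, Idi1 and Nsdhl by group; points are the 2 arrays of a group, lines their mean, blue WT and red KD. Stard4 peaks at 713 and 697 at 1 h in WT and stays between 163 and 238 in KD, while Nsdhl sits at 305 to 378 in WT and 133 to 173 in KD with little change over time.

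The other members that fell from 1 h to 4 h in WT cells were Fdft1 (-0.64 ± 0.13), Msmo1 (-0.43 ± 0.10), Idi1 (-0.49 ± 0.13), Ebp (-0.58 ± 0.19), Mvd (-0.77 ± 0.25), Hmgcs1 (-0.32 ± 0.09), Fasn (-0.55 ± 0.17) and Scd2 (-0.36 ± 0.08). The calls of Fdft1, Msmo1 and Scd2 held in every run without a single array, but that of Fdft1 was lost with the mean of its probe sets (adjusted p = 0.235) and that of Scd2 without the variance trend (adjusted p = 0.0536); those of Ebp and Fasn were lost without any of the 4 arrays compared, those of Hmgcs1, Idi1 and Mvd without 2 or 3 of them, WT 4 h replicate 2 being among these each time (adjusted p up to 0.293). Fasn read 155 and 173 unstimulated, 156 and 136 after 1 h, and 101 and 92.8 after 4 h. By brightest probe sets, Fasn (-0.71 ± 0.17, adjusted p = 0.00954) and Dhcr7 were the only synthesis enzymes called lower at 4 h than unstimulated. There 18 of 22 differences were negative. The Fasn call was lost without WT unstimulated replicate 2 or WT 4 h replicate 2. With the mean of probe sets 4 members were called lower, against 809 of 12456 genes. Less bright Lss probe sets read 167 and 158, and 143 and 115.5, unstimulated. After 4 h they read 102 and 115, and 87.6 and 75.8. Srebf2, Scap, Lbr and Sc5d were not called in any of the 3 WT comparisons by their brightest probe sets. That of Srebf2 averaged 846 unstimulated and 981 after 4 h in WT. Its dimmer probe set read 297 and 195 unstimulated, 254 and 222 after 1 h, and 153 and 151 after 4 h.

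In KD cells the sterol and fatty acid genes gave no called change against unstimulated cells by their brightest probe sets. After 1 h 1 of 29 members was higher and 0 lower (3.28% of all genes called, 1.56% higher and 1.72% lower), with a median of -0.03 against -0.01; that member was Ch25h. At 4 h Ch25h was again the only call (0.618% of all genes, 0.442% higher and 0.177% lower). By limma 8 members at 1 h (4 higher and 4 lower, against 16.6% of all genes) and 6 at 4 h (1 higher and 5 lower, against 13.6%) had an unadjusted p under 0.05. Stard4 read 191 and 163 unstimulated, 229 and 238 after 1 h, and 199.5 and 193 after 4 h, a 1 h difference of 0.39 ± 0.12 (adjusted p = 0.103). Insig1 read 3227 and 3196, then 3500.4 and 3765, then 3264 and 3143 (0.18 ± 0.07 at 1 h, adjusted p = 0.189). For both genes the 1 h arrays were the highest of the 6, as in WT cells. The dim Msmo1 probe set was called at 1 h in KD too, at 77.4 and 113 unstimulated against 183 and 178 (0.89 ± 0.22, adjusted p = 0.0433), and a Scd2 probe set other than the brightest gave 0.55 ± 0.14 (adjusted p = 0.047). From 1 h to 4 h in KD cells 2 members fell and 0 rose (4.04% of all genes called, 2.24% higher and 1.80% lower): Ebp from 102 and 138 to 63.7 and 51.2 (-0.96 ± 0.19, adjusted p = 0.00917) and Dhcr7 from 1127 and 1138 to 816 and 775.5 (-0.51 ± 0.10, adjusted p = 0.0118). Both calls depended on single arrays, Dhcr7 on any of the 4 and Ebp on replicate 2 of either time (adjusted p up to 0.125).

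The genotypes' responses were compared directly as the KD response minus the WT response. At 1 h limma called 0 of 29 members (0.490% of all genes called, 0.145% higher and 0.345% lower). An unadjusted p under 0.05 was reached by 9 members, all with a negative difference, against 8.38% of all genes in either direction. The 9 were Ch25h, Idi1, Stard4, Fdft1, Insig1, Hmgcs1, Msmo1, Acly and Scd2, and their lowest adjusted p was 0.175, for Idi1 (-0.67 ± 0.18). Idi1 gave 0.26 ± 0.13 in WT and -0.42 ± 0.13 in KD by its brightest probe set, neither called. By their brightest probe sets Fdft1, Msmo1 and Acly likewise had a positive estimate in WT and a negative one in KD. A further probe set of each read otherwise in KD cells. Unstimulated and at 1 h these averaged 128.5 and 153 for Fdft1, 95.1 and 180 for Msmo1, and 1193 and 1306 for Acly. That of Idi1 averaged 424 and 415. Dim Acly probe sets past the filter fell, and dim Fdft1 ones went both ways. Over all 29 the median difference in response was -0.24 against 0.04 for all genes, with 25 negative. Stard4 differed by -0.59 ± 0.17 (adjusted p = 0.243) and Insig1 by -0.32 ± 0.10 (adjusted p = 0.276). No difference between the genotypes' 1 h responses is therefore established for these genes by the test over all genes; without WT unstimulated replicate 1 the count was 2 and without KD unstimulated replicate 1 it was 1. At 4 h the responses differed for 1 member, Ch25h (3.03% of all genes called, 1.45% higher and 1.58% lower).

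Ch25h followed a course unlike that of the enzymes, rising at 1 h and again at 4 h. In WT cells it read 52.7 and 63.1 unstimulated, 235 and 292 after 1 h, and 958 and 854 after 4 h. In KD cells it read 20.1 and 36.7, then 72.6 and 59.3, then 74.0 and 80.1. The WT groups did not overlap each other, and the highest KD signal lay far below the lowest WT signal after IL-1b. The step from 1 h to 4 h was 1.76 ± 0.21 in WT (adjusted p = 1.32e-05) and 0.21 ± 0.21 in KD. KD cells were called against their own unstimulated level at 1 h (1.06 ± 0.21, adjusted p = 0.0101) and 4 h (1.26 ± 0.21, adjusted p = 0.00629). Those calls were lost without KD unstimulated replicate 1, the array at 20.1, with differences then of 0.72 and 0.93, and also without KD 1 h replicate 1 or without either KD 4 h array (adjusted p up to 0.114). The response at 4 h was smaller in KD by -2.53 ± 0.30 (adjusted p = 8.59e-05), a call that held in every run without a single array and under every other setting tried. At 1 h the difference in response was -0.98 ± 0.30 (adjusted p = 0.258). Unstimulated KD cells were lower by -0.89 ± 0.21 (adjusted p = 0.00752), a call lost without WT unstimulated replicate 2 or KD unstimulated replicate 1 (adjusted p up to 0.127).

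Genes that act on oxysterols or answer to LXR gave mixed results: of 18 listed, 16 were tested, and in WT cells 1 was called higher at 1 h (7.44% of all genes called) and 3 higher and 3 lower at 4 h (12.0%). Cyp7b1, which encodes the hydroxylase that acts on 25-hydroxycholesterol, read 114 and 82.7 unstimulated, 162 and 195 after 1 h, and 597 and 584 after 4 h in WT cells. In KD cells it read 67.3 and 66.1, then 85.8 and 99.3, then 103 and 64.3. Cyp7b1 rose in WT by 0.82 ± 0.20 at 1 h (adjusted p = 0.018) and 2.51 ± 0.20 at 4 h (adjusted p = 2.04e-07), and the 4 h response was smaller in KD by -2.25 ± 0.28 (adjusted p = 0.000204). Its WT course, like that of Ch25h, was highest at 4 h. Abca1, the cholesterol exporter and a classical LXR target, went the other way between genotypes: it read 100.3 and 155 in unstimulated WT cells and 524 and 565 in KD cells, a difference of 2.05 ± 0.16 (adjusted p = 1.13e-07). It rose in WT at 4 h, to 205 and 218 (0.72 ± 0.16, adjusted p = 0.00608). Abcg1, another LXR-regulated exporter, rose in WT at 4 h from 27.3 and 43.0 to 89.7 and 90.5 (1.21 ± 0.24, adjusted p = 0.00282) and was higher in unstimulated KD cells, at 62.2 and 66.3 (0.77 ± 0.24, adjusted p = 0.0414). In unstimulated KD cells Abca1, Abcg1 and Npc2 (0.31 ± 0.09), which carry lipids or sterols, were called higher, and Scarb1, a lipoprotein receptor, lower (-0.64 ± 0.15), where 14.3% of all genes were called. Apoe passed the filter only through the KD arrays, at 45.0 to 96.0, every WT array lying under it at 2.30 to 19.2, so its called difference has no usable size. The falls at 4 h in WT were of Rxra (-0.70 ± 0.12) and Rxrb (-0.72 ± 0.21), partners of LXR, and Scarb1 (-0.48 ± 0.15).

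**Figure D5:**
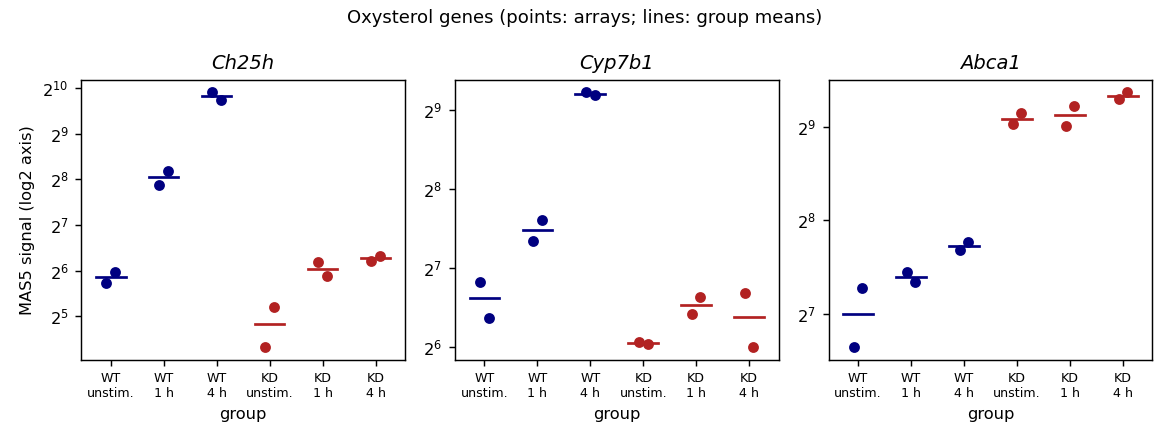
MAS5 signal on log2 axes of Ch25h, Cyp7b1 and Abca1 by group; points are the 2 arrays of a group, lines their mean, blue WT and red KD. Ch25h and Cyp7b1 climb to 854 to 958 and 584 to 597 at 4 h in WT and reach at most 80.1 and 103 in KD, while Abca1 lies at 100.3 to 218 in WT and 516 to 660 in KD.

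Several other lipid synthesis genes were lower in KD cells too. Of 15 listed, 11 were tested; in unstimulated KD cells 5 were lower and 1 higher, with a median of -0.36 against -0.02 over all genes, of which 6.94% were lower and 7.38% higher. Lower were Acaca, acetyl-CoA carboxylase (-1.18 ± 0.26), Acss2, which makes acetyl-CoA from acetate (-0.98 ± 0.17), the desaturases Fads2 (-0.95 ± 0.13) and Fads1 (-0.48 ± 0.14), and the elongase Elovl6 (-0.70 ± 0.16). Me1, malic enzyme, was higher (0.57 ± 0.10). Over the conditions 7 were lower and 2 higher, against 13.7% and 18.2% of all genes. Elovl6 also had a rise and return in WT cells, from 132 and 163 to 267 and 277 at 1 h (0.86 ± 0.16, adjusted p = 0.00238) and 185 and 209 at 4 h. Acaca fell in WT cells at 4 h, from 109.9 and 105 to 49.3 and 47.6 (-1.03 ± 0.26, adjusted p = 0.0137). In KD cells its unstimulated arrays stood apart from each other at 28.5 and 62.8. Both the unstimulated genotype difference of Acaca and the called difference in its 4 h response (1.49 ± 0.36, adjusted p = 0.0323) include them. After 1 h Acaca read 97.8 and 100.2 in WT and 103 and 76.8 in KD cells, and after 4 h the KD arrays read 61.6 and 61.7.

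Of 7 listed genes that process SREBP or control its retention, 5 were tested. Erlin1, a membrane protein of the endoplasmic reticulum, fell at 1 h in both genotypes: in WT from 276 and 302 to 143 and 139 (-0.99 ± 0.16, adjusted p = 0.000665) and in KD from 189 and 186 to 101 and 141 (-0.62 ± 0.16, adjusted p = 0.039). From 1 h to 4 h it rose, to 215 and 238 in WT, still below both unstimulated arrays, and to 179.5 and 201 in KD. Its direction at 1 h was opposite to that of Stard4 and Insig1 in WT. Erlin1 was also lower in unstimulated KD cells (-0.61 ± 0.16, adjusted p = 0.0144). Mbtps1, the protease that makes the first cut of SREBP, was lower at 4 h in WT cells (-0.42 ± 0.13, adjusted p = 0.0476).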

How the data were processed

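RNA of 12 samples was labelled by NuGEN's Ovation protocol, per the labels, and hybridised to Affymetrix whole-genome mouse arrays with 1 colour. The deposited values are MAS5 signal intensities, per the submitters' processing notes, 1 per probe set and array, with no settings named. The number of arrays limits the precision.

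Groups came from the titles and the series design. Of 45101 probe sets, 34945 have 1 symbol in the platform annotation and 932 have several, which were not used; 34741 of the former matched GRCm38.p6 identifiers. The analysis used log2(signal + 8), understating changes of low signals. Probe sets had to reach 25.5, the median of all values, on 2 arrays, and the brightest per gene was kept. In limma 3.58.1 (R 4.3.3) each gene got 6 group means, leaving 6 residual degrees of freedom, and two-sided moderated tests used a variance trend; p-values were adjusted by Benjamini-Hochberg separately for the 10 comparisons. It was tested on simulated data. Figures used matplotlib 3.10.9 in Python 3.11.15.

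Replicate numbers were not used to pair the samples in the main fit, and the labels do not say whether same-numbered arrays share a batch. Deviations of same-numbered arrays correlated between -0.05 and 0.10 over 15 pairs of groups, which cannot exclude a shared batch. The members and lists were chosen with earlier results of these data known. All members were named. Of 3 further lipid lists only part of the called genes were named, by no fixed number per comparison. Alternatives covered the pseudocount, filter, scaling, probe set rule, variance trend, arrays fitted, replicate block and each array left out.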

Additional observations from a re-analysis of the deposited data

Results flagged for a closer look

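The response of Ch25h to 4 h of IL-1b differed between the genotypes by a test of the difference itself (limma, the KD response minus the WT response): -2.53 ± 0.30 on the log2(signal + 8) scale. The rise was 3.80 ± 0.21 in WT cells, from 52.7 and 63.1 to 958 and 854, and 1.26 ± 0.21 in KD cells, from 20.1 and 36.7 to 74.0 and 80.1. The smallest KD signals lie where the pseudocount compresses differences.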

How the results depend on the processing

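Counts of called members moved by over 1.5 times under few settings. Without the variance trend they were 3 for WT 1 h, 7 for WT 4 h against 1 h, and 0 for each of the 3 KD time comparisons. The mean over a gene's probe sets gave 5 for WT 4 h. Quantile normalization gave 2 for KD 1 h and 2 for the 4 h difference in response, and fitting only the groups compared gave 2 for KD 4 h. The counts without a single array, whose lone partner is then taken to vary like the other groups, ran from 3 to 8 for WT 1 h, 2 to 5 for WT 4 h, 7 to 13 for WT 4 h against 1 h, 0 to 2 for KD 1 h, 0 to 3 for KD 4 h, 0 to 2 for KD 4 h against 1 h, 0 to 2 for the 1 h difference in response, 1 to 1 for the 4 h difference, 13 to 17 for unstimulated KD against WT, and 21 to 23 over the conditions. Of the calls, 10 of 17 in unstimulated KD against WT, 18 of 22 over the conditions, 2 of 6 at WT 1 h and 5 of 12 at WT 4 h against 1 h held in every run. The replicate block gave 6 calls for WT 1 h, 17 for unstimulated KD against WT and 21 over the conditions, where Insig2 lost its call; it moved no other count. A single value reversed: Msmo1 from 1 h to 4 h in KD, 0.12 by its brightest probe set and not called, was -0.65 with the mean of its probe sets (adjusted p = 0.0232, limma), since its dim probe set fell by 1.42 there. Median centring changed the all-gene split at WT 4 h from 584 higher and 914 lower to 590 and 473, at WT 4 h against 1 h from 1048 and 1316 to 719 and 1642, at KD 4 h against 1 h from 279 and 224 to 146 and 230, and for the differences in response from 18 and 43 to 8 and 53 at 1 h and from 181 and 197 to 84 and 230 at 4 h. Leaving out probe sets that can bind several transcripts was chosen after seeing the data; the 18 calls it gave in unstimulated KD against WT compare with 17. Signals near 25.5, such as those of Ch25h in unstimulated KD cells, limit what can be said of their size. The causes of these moves were not tested.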
